A study of Mus musculus with 2 samples.

Results

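The genes described here encode the tissue inhibitors of metalloproteinases (Timp1, Timp2, Timp3 and Timp4), the membrane-anchored inhibitor Reck and the matrix proteases Mmp2, Mmp9, Mmp14, Adamts1 and Adam12, measured in myoblasts with and without induced deletion of Mll1. They are 10 of the 19938 genes that have a probe set with a single gene symbol, and were taken by exact symbol, with 1 probe set for each gene. Primary myoblasts, the dividing progeny of muscle satellite cells, came from hind limb muscle of 5- to 6-week-old mice and formed 1 line with the genotype Rosa-CreER / MLL1 fl/fl, in which Cre recombinase fused to an estrogen receptor domain is made from the Rosa26 locus and enters the nucleus when 4-hydroxytamoxifen (4-OHT) is present. The MLL1 KO culture received 500 nM 4-OHT in 0.01% ethanol for 7 days, and the Control culture of the same line received 0.01% ethanol alone for 7 days. Both were then kept for 3 days without drug or ethanol according to the labels, a washout that the study's methods give as shorter, and both grew in medium with 20% serum and 5 ng/ml FGF. The deletion and the drug itself cannot be told apart, because a 4-OHT-treated culture without the floxed alleles was not analysed here.

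RNA of each culture was hybridised to 1 Affymetrix MoGene 1.0 ST array, so that no spread between cultures is known, nothing could be tested, and precision is limited by the number of arrays. Each value is a log2 signal from RMA, a procedure that removes background, brings the arrays to a common distribution and combines the probes of each probe set into 1 value. A log2 difference is the MLL1 KO signal minus the Control signal, and a 2-fold change (a log2 difference of 1) was the threshold. Because each array measured a whole culture, fewer cells that express a gene and less RNA per cell cannot be told apart. Signals of different genes come from different probes and are not compared with each other, and the values carry no detection call, so a weak signal does not show whether the transcript was present. Kmt2a, the gene for MLL1, had a log2 signal of 9.66 in MLL1 KO and 9.44 in Control, but its probe set is summarised over the transcript and checks nothing about the deleted exons. The 8 myoblast markers, among them Pax7, Myod1 and Des, had signals between 6.14 and 12.27 in MLL1 KO and between 9.43 and 12.15 in Control, with Myf5 at the low end in MLL1 KO.

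Matrix metalloproteinases, ADAM and ADAMTS proteins are zinc-dependent proteases that cut collagens, proteoglycans and the ectodomains of membrane proteins, and TIMPs are small secreted proteins that bind to their catalytic site and block it. In muscle, this system remodels the matrix around satellite cells and fibers during growth and repair. TIMP-3 differs from the other TIMPs in being held in the extracellular matrix and in also inhibiting several ADAM and ADAMTS proteases. Of these 10 genes, 1, Timp3, was over 2-fold higher in MLL1 KO and 0 were over 2-fold lower, against 1.16% of all 19938 genes higher and 0.11% lower. Counted by probe sets, the same shares were 1.18% and 0.101% of those with a single symbol, 1.68% and 0.177% of those that also had a signal over 7 on 1 of the arrays, and 2.62% and 0.219% of all 35557 deposited probe sets. The genes were chosen by the log2 difference of Timp3 between these same arrays, so the counts describe the arrays and support nothing further. At any size, 7 of the 10 were higher and 3 were lower, against 41.6% and 55.6% of all genes. With the trend of the difference on signal removed, these counts were 9 and 1, against 50.7% and 49.3% of all genes. The other 9 genes lay within log2 differences of -0.21 and 0.47.

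The promoters of the TIMP genes are shown because they differ in CpG content, and because MLL1 carries a CXXC domain, a zinc-finger fold that binds DNA with unmethylated CpG. Each window holds 250 bases before and 50 after the RefSeq start of the gene in GRCm38.p6, written 5′ to 3′ on the strand of the gene, with each CpG in capitals.
Timp3: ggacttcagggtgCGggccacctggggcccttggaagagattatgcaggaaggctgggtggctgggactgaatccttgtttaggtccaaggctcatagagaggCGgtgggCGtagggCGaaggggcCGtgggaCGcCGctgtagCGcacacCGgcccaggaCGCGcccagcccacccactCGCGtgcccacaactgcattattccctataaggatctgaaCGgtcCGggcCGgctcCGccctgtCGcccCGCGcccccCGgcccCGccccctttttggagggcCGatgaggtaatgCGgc
Timp2: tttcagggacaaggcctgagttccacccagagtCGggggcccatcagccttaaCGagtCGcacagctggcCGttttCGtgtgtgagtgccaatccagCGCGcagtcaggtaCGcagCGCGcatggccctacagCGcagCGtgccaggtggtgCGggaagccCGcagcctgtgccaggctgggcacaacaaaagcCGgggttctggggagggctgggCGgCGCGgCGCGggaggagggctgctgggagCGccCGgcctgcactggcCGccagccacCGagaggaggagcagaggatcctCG
Timp1: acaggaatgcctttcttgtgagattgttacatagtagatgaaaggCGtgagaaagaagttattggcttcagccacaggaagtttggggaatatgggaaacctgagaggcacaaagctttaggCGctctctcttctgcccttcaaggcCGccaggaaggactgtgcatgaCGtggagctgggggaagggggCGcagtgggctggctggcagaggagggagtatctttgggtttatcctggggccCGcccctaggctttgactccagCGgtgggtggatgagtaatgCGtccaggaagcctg
Timp4: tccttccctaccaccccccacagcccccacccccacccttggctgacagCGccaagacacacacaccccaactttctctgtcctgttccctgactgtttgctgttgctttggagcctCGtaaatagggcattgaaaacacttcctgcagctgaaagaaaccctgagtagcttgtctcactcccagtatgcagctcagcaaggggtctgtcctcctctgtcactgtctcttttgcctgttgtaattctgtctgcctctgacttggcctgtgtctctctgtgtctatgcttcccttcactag
The Timp3 window lies at chr10:86300162-86300461 on the plus strand and holds 24 CpG dinucleotides, and 20.0% of all 32851 RefSeq windows hold as many. The Timp2 window, at chr11:118355362-118355661 on the minus strand, holds 25. The Timp1 window, at chrX:20869916-20870215 on the plus strand, holds 8, and the Timp4 window, at chr6:115252156-115252455 on the minus strand, holds 2. A window was found for 7 of the 10 genes, and those of Reck, Adamts1 and Mmp14 hold 23, 18 and 10 CpG, against a median of 7 over all windows. Where MLL1 binds and how these promoters are methylated was not analysed here.

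Short motifs were searched on both strands of the same windows. The GC box GGGCGG was present in 6 of the 7 windows, with 2 matches in that of Timp3 and none in that of Timp4, and 35.7% of all windows hold it. The E-box CAGCTG, of the kind that myogenic basic helix-loop-helix factors prefer, was present in the windows of Timp2, Timp4 and Reck, and in 16.3% of all windows. The TATA motif TATAAA was present in the window of Adamts1 and in 13.6% of all windows. The AP-1 motif TGACTCA was in none of the 7 windows and in 5.20% of all windows. A match of letters is a description of the window and not a binding site.

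Timp3 had a log2 signal of 8.59 in MLL1 KO and 5.60 in Control, a log2 difference of 2.99, or a 7.94-fold higher signal. On the linear scale of the array these signals are 386 units in MLL1 KO and 48.6 units in Control. Of the 21789 probe sets with a single symbol, 2, its own included, had a difference as high or higher. Timp3 is also 1 of 81 genes that were over 2-fold higher and had a signal over 7 in MLL1 KO but under 7 in Control. Among genes whose signal exceeded 7 on either array, the 5 with the nearest log2 difference to that of Timp3 were Slc40a1 (3.03), Stmn2 (2.87), Dlk1 (2.67), Sfrp2 (2.54) and Cd24a (2.53). Only Cd24a had a Control signal over 7, at 7.97, so the others met this requirement only through MLL1 KO. With 2 arrays the likeness of these genes to Timp3 is only a similar size of difference. After each of 4 rescalings of the values, the log2 difference of Timp3 stayed between 2.92 and 3.04.

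**Figure D1:**
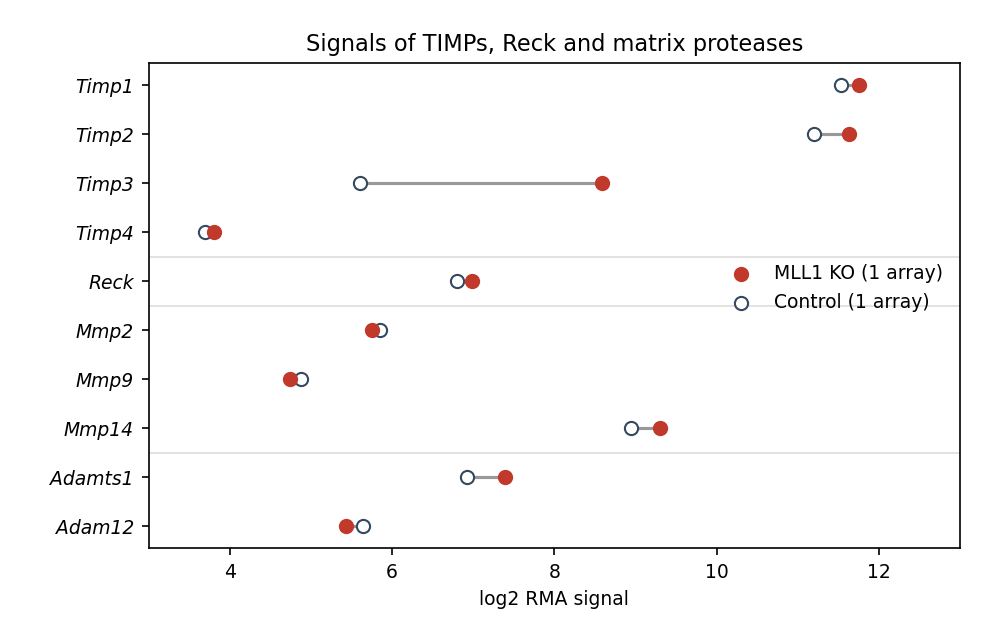
Log2 RMA signal (horizontal axis) of the TIMPs, Reck, the matrix metalloproteinases and the ADAM and ADAMTS proteases in the MLL1 KO array (filled red points) and the Control array (open points), 1 array each, so no error can be drawn. The line of Timp3 spans 8.59 in MLL1 KO and 5.60 in Control, whereas for each of the other 9 genes its own points lie within 0.47.

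The other TIMPs were each higher in MLL1 KO by less than 2-fold. Timp1, a broad inhibitor of secreted metalloproteinases, had a log2 signal of 11.75 in MLL1 KO and 11.52 in Control, a 1.17-fold higher signal, and 18.8% of the probe sets had a difference as high or higher. Timp2, which inhibits MMP-2 and also takes part in its activation at the cell surface together with MMP-14, had 11.63 in MLL1 KO and 11.20 in Control. It was 1.35-fold higher, and 8.44% of the probe sets had a difference as high or higher. Timp4, known for its expression in heart and brain, had the weak signals of 3.81 in MLL1 KO and 3.70 in Control, a 1.08-fold difference. The log2 differences of the 4 TIMPs thus ran from 0.11 to 2.99, and that of Timp3 exceeded that of Timp2, the next in order, by 2.55. Reck encodes a GPI-anchored glycoprotein that restrains several matrix metalloproteinases at the cell surface. It had a log2 signal of 6.99 in MLL1 KO and 6.80 in Control and was 1.14-fold higher.

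None of the 5 proteases differed by 2-fold. As deposited, 2 were higher and 3 were lower, and with the trend on signal removed 4 were higher and 1 was lower. Adamts1, a secreted protease that cleaves versican and other proteoglycans, had a log2 signal of 7.39 in MLL1 KO and 6.93 in Control and was 1.38-fold higher, and 7.66% of the probe sets had a difference as high or higher. Mmp14 encodes a membrane-anchored collagenase that also activates MMP-2. Its log2 signal was 9.31 in MLL1 KO and 8.95 in Control, a 1.28-fold higher signal, as high or higher in 11.3% of the probe sets. The gelatinase genes Mmp2 and Mmp9 encode proteases that cut denatured collagen and basement membrane. Mmp2 had 5.76 in MLL1 KO and 5.85 in Control, a log2 difference of -0.10, and Mmp9 had 4.75 in MLL1 KO and 4.88 in Control, a log2 difference of -0.14. Both signs turned positive, to 0.0029 and 0.073, when the trend of the difference on signal was removed, so no direction is given for either. Adam12 encodes meltrin α, a protease and adhesion protein known from fusing myoblasts, and had 5.44 in MLL1 KO and 5.64 in Control, a log2 difference of -0.21.

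**Figure D2:**
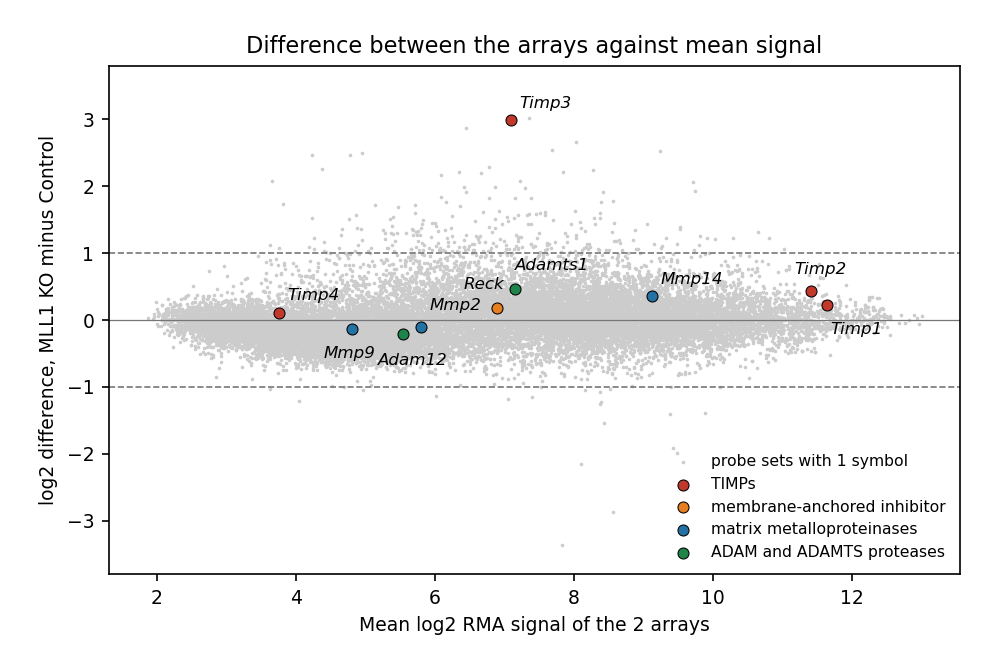
Log2 difference of MLL1 KO minus Control (vertical axis) against the mean log2 RMA signal of the 2 arrays (horizontal axis) for 21789 probe sets with a single symbol (grey) and for the 10 genes described here (coloured by family). Dashed lines mark a 2-fold difference, which Timp3 exceeds at 2.99 while the other 9 genes lie inside the grey band.

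Over the whole array the direction of a difference varied with the mean signal of both arrays. Of genes with a mean signal over 7, 58.6% were higher in MLL1 KO, and of the others 29.4%. Timp1, Timp2, Timp3, Mmp14 and Adamts1 had a mean signal over 7 and were higher. Timp3 and Adamts1 had Control signals under 7, so their place in this group came through MLL1 KO, and nothing is read from the count. Of the 5 genes with weaker signals, Timp4 and Reck were higher as deposited and Mmp2, Mmp9 and Adam12 were lower. With the trend on signal removed, only Adam12 was lower, with a log2 difference of -0.064. The part of signal strength in the small differences was not tested. The median log2 difference of the 10 genes was 0.20, against -0.05 over all 19938 genes.

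Timp1, Timp3 and Timp4 lie inside synapsin genes in the RefSeq annotation. Syn3, the gene around Timp3, encodes a synaptic vesicle protein of neurons and had a log2 signal of 5.06 in MLL1 KO and 5.12 in Control. The genes on either side of this pair also differed little, with log2 differences of 0.02 for Fbxo7, which encodes an F-box protein, and 0.10 for Gm5174. No measured protein-coding neighbour of Timp3 thus differed by 2-fold. All of these neighbours had signals under 7, with Fbxo7 at 6.80 in MLL1 KO and 6.78 in Control. Gm5174 was the weakest, at 2.73 in MLL1 KO and 2.62 in Control. With signals as weak as this, a change of the transcript might not be seen. Syn1, around Timp1, had 7.73 in MLL1 KO and 7.32 in Control, and Syn2, around Timp4, had 5.42 in MLL1 KO and 5.61 in Control. Of 24 measured coding neighbours of the 10 genes, 1 was higher by over 2-fold and 0 lower, against 1.16% and 0.11% of all genes. This was Lgals3bp beside Timp2, a secreted galectin-binding glycoprotein, with 8.39 in MLL1 KO and 7.29 in Control. Adamts1 lies next to its relative Adamts5, an aggrecanase gene, and these 2 had log2 differences of opposite sign, 0.47 for Adamts1 and -0.53 for Adamts5.

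Further genes of pericellular proteolysis were taken from 13 lists, in which 126 of 131 genes had a probe set with a single symbol. Of the 126, 7 were over 2-fold higher in MLL1 KO, which is 5.56% and compares with 1.16% of all genes, and none was over 2-fold lower, against 0.11% of all genes. Without regard to size, 58 were higher and 65 were lower, against 41.6% and 55.6% of all genes, and with the trend on signal removed 72 were higher and 54 were lower, against 50.7% and 49.3%. The lists were drawn up with results of these arrays known, so nothing is read from these shares. Where a signal over 7 on either array was required, 4 of the 7 were counted (Serpinb2, Plat, Itga3 and Vcan), and Plat met that requirement only through its MLL1 KO signal.

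Of 19 other matrix metalloproteinases, 1 was over 2-fold higher, 7 were higher at any size and 11 were lower. The same shares of all genes were 1.16%, 41.6% and 55.6%. The gene over 2-fold was Mmp19, which encodes a secreted protease of basement membrane and matrix proteins. It had a log2 signal of 6.58 in MLL1 KO and 5.08 in Control, a 2.83-fold higher signal. The median of the list was -0.09 and turned positive, to 0.10, with the trend on signal removed. Of the 17 other ADAMTS genes, 15 were lower and 2 higher, none by 2-fold, against 55.6% and 41.6% of all genes, and their median was -0.25. In this list 5 genes had a signal over 7 on either array. Of all genes with a mean signal of 7 or less, 29.4% were higher. With the trend on signal removed, 14 of the 17 were still lower and 3 higher, against 49.3% and 50.7% of all genes. Adamts5 had the largest difference in size among them, with 6.13 in MLL1 KO and 6.67 in Control. In the 5 ADAMTS-like genes, which encode secreted relatives without a protease domain, the largest difference was that of Adamtsl3, with 5.75 in MLL1 KO and 4.93 in Control. Of 13 other ADAM genes and their iRhom cofactors, none passed 2-fold, 6 were higher and 7 were lower. Adam23, which encodes an adhesion protein without protease activity, had 8.21 in MLL1 KO and 7.45 in Control, and Adam17, the sheddase that TIMP-3 inhibits, had 9.31 in MLL1 KO and 9.49 in Control.

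The plasminogen system, which activates several metalloproteinases, held 2 genes over 2-fold higher among 6 measured, against 1.16% of all genes. Serpinb2, an intracellular and secreted inhibitor of urokinase, had a log2 signal of 9.17 in MLL1 KO and 7.57 in Control and was 3.03-fold higher. Plat, which encodes tissue plasminogen activator, had 7.73 in MLL1 KO and 6.66 in Control, a 2.10-fold higher signal. Its log2 difference of 1.07 fell below 1 with the trend on signal removed (0.99) and after a second quantile normalization (0.96). Of 15 other secreted protease inhibitors none passed 2-fold, and the largest difference was that of the cystatin gene Cst6, with 8.90 in MLL1 KO and 7.92 in Control. Its log2 difference of 0.97 passed 2-fold, at 1.03, when differences were centred on the median of the probe sets with a single symbol. Among 11 cathepsins and serine proteases of the matrix, 8 were higher, none by 2-fold, against 41.6% of all genes higher. In this list 6 genes had a signal over 7 on either array. Of all genes with a mean signal over 7, 58.6% were higher. With the trend on signal removed, 9 of the 11 were higher and 2 lower, against 50.7% and 49.3% of all genes. Htra1 came closest to 2-fold in the list, with 7.93 in MLL1 KO and 7.01 in Control. The 7 procollagen and astacin proteases and the 4 proprotein convertases, which include the activator of MMP-14 furin, held no gene over 2-fold. Their largest differences in size were those of Tll1, a log2 difference of -0.33, and of Pcsk6, of -0.52.

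**Figure D3:**
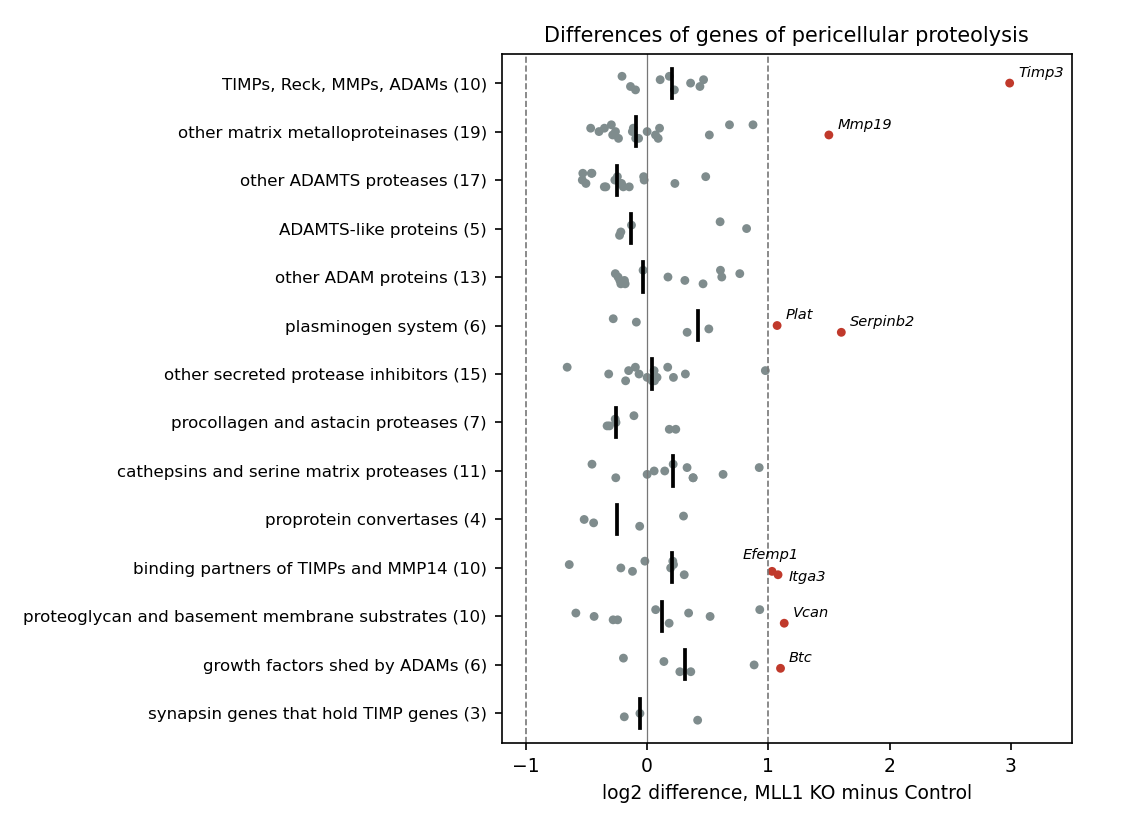
Log2 difference of MLL1 KO minus Control (horizontal axis) for each measured gene of the TIMPs and matrix proteases (top row) and of 13 lists of related genes, with the number of genes in brackets. Points are genes, red and named where over 2-fold, vertical bars are list medians, and dashed lines mark 2-fold; Timp3 stands at 2.99, and the next of the genes shown is Serpinb2, 3.03-fold higher.

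Proteins that TIMPs and MMP-14 bind, and substrates of these proteases, held 4 of the 7 genes over 2-fold. These were 2 of 10 binding partners, 1 of 10 matrix substrates and 1 of 6 shed growth factors, against 1.16% of all genes. Efemp1 and Btc had no signal over 7 on either array, and nothing is read from these counts. Efemp1, which encodes the matrix protein fibulin-3 that binds TIMP-3, had a log2 signal of 5.37 in MLL1 KO and 4.34 in Control, a 2.04-fold higher signal. Itga3, a laminin-binding integrin subunit, had 8.21 in MLL1 KO and 7.13 in Control and was 2.11-fold higher. Its log2 difference of 1.08 was 0.9994 with the trend on signal removed and 0.98 after quantile normalization, both below the threshold. Vcan encodes versican, the proteoglycan that ADAMTS1 cleaves, and had 10.37 in MLL1 KO and 9.24 in Control, a 2.19-fold higher signal. Btc, a growth factor of the EGF family released from the membrane by ADAM proteases, had 6.97 in MLL1 KO and 5.87 in Control and was 2.14-fold higher. Lrp1, the endocytic receptor that clears TIMP-3 and several proteases, had 10.96 in MLL1 KO and 10.66 in Control. Kdr, the VEGF receptor that TIMP-3 binds, had 3.94 in MLL1 KO and 4.15 in Control.

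Many of these genes are also expressed by fibroblasts and other cells of muscle, so markers of those cells were measured beside them. The 8 fibroblast markers, Pdgfra and Col1a1 among them, had no gene over 2-fold. Of these markers, 2 were higher and 6 were lower, against 41.6% and 55.6% of all genes. Their log2 signals lay between 2.39 and 6.43 in MLL1 KO and between 2.58 and 6.58 in Control, and their summed linear signal was 273 units in MLL1 KO and 301 units in Control. Pdgfra had 5.09 in MLL1 KO and 5.15 in Control. Pdgfrb had the largest difference in size among the fibroblast markers, with 4.56 in MLL1 KO and 4.91 in Control. The 5 endothelial markers summed to 95.2 units in MLL1 KO and 106 units in Control, with 4 lower and none higher. Tek differed most among them, with a log2 signal of 4.13 in MLL1 KO and 4.46 in Control. The sum of 5 macrophage and immune markers was 235 units in MLL1 KO and 132 units in Control. Of these markers, 1 was higher and 4 were lower. The higher one was Cd68, a lysosomal protein, with a log2 signal of 7.47 in MLL1 KO and 6.08 in Control. The higher sum in MLL1 KO thus came from Cd68. With the trend on signal removed, 3 of these markers were higher and 2 lower. Ptprc, the pan-leukocyte marker CD45, had 3.69 in MLL1 KO and 3.83 in Control. The 5 smooth muscle and pericyte markers summed to 2741 units in MLL1 KO and 2636 units in Control, with 3 higher, and the 4 adipocyte markers to 539 units in MLL1 KO and 466 units in Control, with 2 higher. Most of these sums came from 1 gene each. Acta2, which encodes smooth muscle actin, gave 2406 units in MLL1 KO and 2378 units in Control, and the other 4 markers of its list summed to 336 units in MLL1 KO and 259 units in Control. Among these 4, the largest difference was that of Rgs5, with a log2 signal of 7.74 in MLL1 KO and 6.95 in Control. Cspg4 was also higher, by 1.03-fold, and Myh11 and Cnn1 were lower. Pparg, an adipogenic transcription factor, gave 478 units in MLL1 KO and 391 units in Control, and the other 3 markers summed to 61.7 units in MLL1 KO and 74.2 units in Control. Plin1 had the largest difference in size of the adipocyte markers, with a log2 signal of 5.32 in MLL1 KO and 5.68 in Control. Neither the smooth muscle and pericyte list nor the adipocyte list held a gene over 2-fold. The marker lists do not hold Ly6a, which encodes SCA1, an antigen by which the study removed other cells. The study reports Ly6a among the most upregulated genes of the myoblasts without Mll1, so the lists do not cover every marker of such cells.

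Genes that reflect the state of the myoblasts also differed between the arrays. Of 12 genes of muscle differentiation, 11 were higher in MLL1 KO and 4 of them by over 2-fold, namely Myl1 and Tnni1, of the contractile apparatus, the fusion gene Mymk and the calsequestrin gene Casq1, with a median log2 difference of 0.71 for the list. Of all genes, 1.16% were over 2-fold higher, 41.6% were higher at any size and 55.6% were lower. Of 12 S-phase genes, 11 were lower and none by 2-fold, with a median of -0.49. Cdc6 had the largest difference in size among them, with a log2 signal of 6.95 in MLL1 KO and 7.67 in Control. Myog, in the differentiation list, had a log2 difference of 0.64. The study describes the myogenin mRNA level of these myoblasts as unchanged. With 1 array per group, every gene that differs does so between the same arrays as Timp3, in the same or the opposite direction. Both lists were chosen with results of these arrays known, so nothing is read from their counts. Their part in the difference of Timp3 was not tested.

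**Figure D4:**
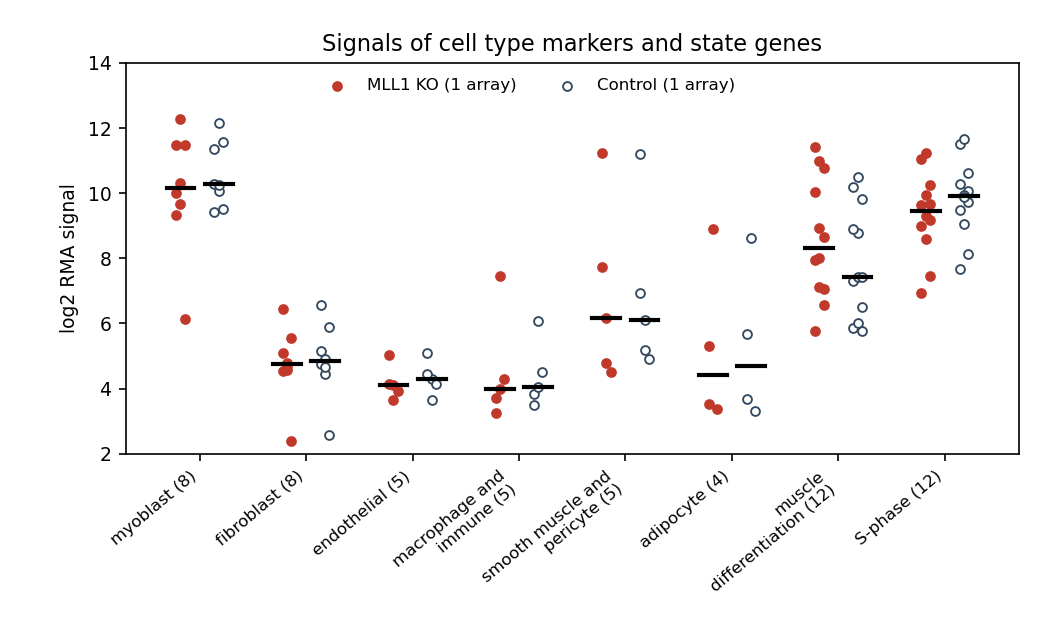
Log2 RMA signal (vertical axis) of each marker gene in the MLL1 KO array (filled, left) and the Control array (open, right), by cell type or state, with the number of genes in brackets and the list median as a bar. The fibroblast medians are 4.74 in MLL1 KO and 4.84 in Control, whereas those of muscle differentiation genes are 8.33 in MLL1 KO and 7.43 in Control.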

How the data were processed

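Total RNA of 1 MLL1 KO and 1 Control myoblast culture was measured on Affymetrix MoGene 1.0 ST arrays. The authors ran RMA in R and deposited log2 signals of 35557 probe sets. The sources used here give no version. Symbols came from the platform annotation: 21789 probe sets carried a single symbol, 1621 more than 1 and 12147 no symbol. Of the 21789, 21698 carried a gene number found in the RefSeq table of GRCm38.p6. Only probe sets with 1 symbol were named and counted, and a gene's value is the mean of its probe sets. The log2 difference is MLL1 KO minus Control, and folds are its antilog. With 1 array per group no test, error or p-value was possible. The calculations were checked on simulated arrays.

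The genes and lists were chosen with earlier results of these data known. Named were the 10 genes, each list gene over 2-fold or, failing that, the list's largest difference, and the 5 genes nearest to Timp3 in difference with a signal over 7; other genes named were chosen after their values were seen. Alternatives were thresholds of 1.5-fold and 3-fold, a signal over 7, 1 probe set per gene, centring on 2 medians, removal of a lowess trend (span 0.3) and a second quantile normalization. Promoters are those of RefSeq. Python 3.11.15 was used with numpy 2.4.6, pandas 2.3.3, statsmodels 0.14.6 and matplotlib 3.10.9.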

Additional observations from a re-analysis of the deposited data

How the results depend on the processing

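The count of TIMPs and proteases over 2-fold, 1 higher and 0 lower, was the same under all 9 alternatives. Those that take 1 probe set per gene could not change it, because each of the 10 genes has 1 probe set. Timp3 met the requirement of a signal over 7 only through MLL1 KO. After the rescalings its log2 difference lay between 2.92 and 3.04. Of 40 recomputed log2 differences of the 10 genes, 38 kept their sign and side of 2-fold, and the others were those of Mmp2 (0.0029) and Mmp9 (0.073) with the trend on signal removed. Of the 126 related genes, 19 were higher and 3 lower at 1.5-fold, 1 was higher at 3-fold, and 4 were higher with a signal over 7. Against 7 as deposited, 8 were over 2-fold higher after centring on probe sets with 1 symbol, with Cst6 added at 1.03, 6 with the trend removed, with Ereg added at 1.08, and 5 after quantile normalization. Over all deposited probe sets, which include those with no symbol or several, 2.62% were over 2-fold higher and 0.219% lower, against 1.18% and 0.101% of those with 1 symbol, and 0.177% of those with a signal over 7 were lower. List medians that changed sign were, with the trend removed, the other metalloproteinases (0.098), other ADAM genes (0.093), synapsins (0.14), immune markers (0.013) and adipocyte markers (0.074), with centring on probe sets with 1 symbol the other ADAM genes (0.019) and adipocyte markers (0.0029), and with quantile normalization the smooth muscle markers (-0.050). The cause was not tested. No paired analysis was possible because each group has 1 array. Weak signals have no measured background.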

Other observations

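Other metalloproteinases with a signal over 7, chosen after their values were seen, were higher in MLL1 KO by less than 2-fold. Mmp11, which encodes stromelysin-3, had a log2 signal of 8.44 in MLL1 KO and 7.93 in Control. Mmp16, a membrane-anchored relative of MMP-14, had 8.22 in MLL1 KO and 7.54 in Control, and Mmp23, a small metalloproteinase with an unusual domain structure, had 8.30 in MLL1 KO and 7.43 in Control. Among genes of secreted matrix proteins, Fn1, which encodes fibronectin, had 12.18 in MLL1 KO and 11.66 in Control. Bgn, which encodes the proteoglycan biglycan, had 9.24 in MLL1 KO and 8.31 in Control. These 2 were also chosen after their values were seen. In their list of 10 matrix substrates, 6 genes were higher and 4 lower, against 41.6% and 55.6% of all genes. Nid2, 1 of those that were lower, had 7.39 in MLL1 KO and 7.67 in Control.

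The uptake and activation of urokinase also involve genes that differed by less than 2-fold. Plau, the urokinase gene, had 10.09 in MLL1 KO and 9.76 in Control, and Plaur, its receptor gene, had 9.06 in MLL1 KO and 8.55 in Control. Ereg and Hbegf, growth factors of the EGF family that are shed by ADAM proteases, had log2 differences of 0.88 and 0.36. That of Ereg passed 2-fold, at 1.08, with the trend of the difference on signal removed.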
